A study of Mus musculus with 677 samples.

Results

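Mt1 and Mt2 encode the broadly expressed metallothioneins of the mouse, and they are 2 of the 23420 genes in the deposited single-cell table of intestinal epithelium. They were selected by name with earlier results of these data in view, in which Mt2 was lower in Atg16l2-deficient than in wild-type transit-amplifying (TA) cells. That contrast, and the levels by cell type that were also part of the selection, are therefore described here without a test. The table holds 677 cells from C57BL/6 mice, of which 49.5% came from WT animals and 50.5% from Atg16l2 -/- animals (KO). The labels name SMART-Seq2 and a 10X Genomics kit for the same cells without saying which was used for which. The cells come from 2 runs and carry a code (M1 or M2) and 1 of 9 annotated cell types in their titles. The 4 combinations of genotype and code each hold between 24.7% and 25.4% of the cells, so each genotype has 2 animals, if a code is an animal and stands for the same one in both runs. The labels state neither, and each n below counts a code over both runs. The labels give no age, sex or treatment, and do not say whether the deletion is present throughout the body.

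Metallothioneins are small, cysteine-rich proteins, whose cysteines hold zinc and copper ions. Their genes are switched on by the metal-sensing factor MTF1, which binds short metal response elements in their promoters when free zinc rises, and also by glucocorticoids and oxidative stress. In the gut epithelium they buffer zinc taken up from the diet and bind surplus copper.

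Mt2 and Mt1 lie side by side on the plus strand of chromosome 8. In GENCODE M21 (GRCm38) the protein-coding gene Mt2 spans 94172664 to 94173568 and Mt1 spans 94179082 to 94180327, with 5513 bases between them, and each has a coding transcript of 3 exons. Their promoters are shown because both are classic targets of MTF1 and the levels of the pair are compared cell by cell below. The sequences are the 250 bases before the transcript start in RefSeq (GRCm38.p6), 5′ to 3′ on the plus strand, at chr8:94172368-94172617 for Mt2 and chr8:94178839-94179088 for Mt1. Capitals mark matches to the core of the metal response element, TGCACNC or TGCGCNC, on either strand.
Mt2 promoter: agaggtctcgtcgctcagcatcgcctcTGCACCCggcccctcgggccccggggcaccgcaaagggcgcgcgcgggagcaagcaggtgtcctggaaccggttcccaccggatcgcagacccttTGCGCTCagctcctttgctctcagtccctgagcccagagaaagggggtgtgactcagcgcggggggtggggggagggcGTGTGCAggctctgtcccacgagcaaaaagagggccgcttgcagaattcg
Mt1 promoter: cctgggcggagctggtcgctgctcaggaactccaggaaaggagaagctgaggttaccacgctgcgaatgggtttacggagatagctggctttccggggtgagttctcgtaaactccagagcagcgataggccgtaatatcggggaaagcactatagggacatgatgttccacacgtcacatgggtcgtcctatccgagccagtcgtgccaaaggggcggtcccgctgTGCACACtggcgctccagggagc
The 3 matches shown for Mt2 begin at -223, -128 and -50 relative to the start, and the match shown for Mt1 begins at -23. With the 50 bases after the RefSeq start included, the 300-base window of Mt2 held 4 matches and that of Mt1 held 3. The Mt2 window ends at 94172667, so nearly all of it lies before the GENCODE start of Mt2. GENCODE also gives an Mt2 transcript that starts at 94172860, past the end of the Mt2 window. It likewise gives Mt1 transcripts that start at 94179211 and 94179241, past the end of the Mt1 window at 94179138. The positions and counts of matches therefore hold for the RefSeq starts only. Of 32851 RefSeq promoter windows of that length, 25.7% held at least 1 match, 1.97% held at least 3 and 0.517% held at least 4. The core of the antioxidant response element, TGACNNNGC, was found 1 time in the Mt2 window (at -79) and 0 times in that of Mt1, and 12.4% of windows hold it. A match describes the letters only and does not show that a factor binds there.

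The coding sequences of Mt1 and Mt2 are of equal length and 79.6% identical in bases. Their longest 3-exon transcripts (549 bases for Mt1 and 511 for Mt2) nevertheless shared 0 stretches of 25 bases, so a perfectly matching read of that length points to 1 of the pair. How the authors' counting divided reads with mismatches between the pair, or between them and other copies in the genome, was not analysed here.

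Before the results, some facts of the whole table bear on the values. Atg16l2 was above 0 in 38 WT cells (11.3%) and in 0 KO cells, which allows a share of up to 0.877% of KO cells. Where a type had a fixed marker list, its label followed the list: between 4 and 6 markers of each list had their highest mean in the type they mark, and 0 of them were at 0 there. The enterocyte progenitor types had no list of their own. The TA markers summed to 2004 TPM in Enterocyte.prog.early cells, against 2480 in TA cells. The Paneth markers summed to 31121 TPM in Goblet cells, against 331960 in Paneth cells. The median number of genes above 0 TPM per cell was 6042 in WT and 6170 in KO, and run 1 medians (6247 to 6615) exceeded run 2 medians (5460.5 to 5878) in each animal. TPM values, which count transcripts after correction for their length, are scaled to a fixed sum in each cell, so the sequencing depth behind a value is unknown. Among run 1 profiles, that of KO M2 was unlike the rest: its mean correlation with the other 3 run 1 profiles was 0.935, against 0.953 to 0.955 for those 3. Without those cells the members' differences moved most in Goblet cells and in the average of 5 types, as given there.

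Mt1 was an abundant transcript. TPM is corrected for transcript length, so the levels of the pair are set side by side here. Which Mt1 transcript the values rest on was not analysed, and the comparison depends on its length. Over all cells Mt1 averaged 367.1 TPM and ranked 391 of 23420 genes by mean, and Mt2 averaged 54.7 TPM and ranked 2391. Mt1 was above 0 in 607 of the 677 cells (89.7%, exact 95% interval 87.1 to 91.9) and Mt2 in 39.4% (35.7 to 43.2). These intervals, and those below, cover counting of cells only.

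By cell type, Mt1 was highest in the early and late enterocyte progenitors and TA cells and lowest in the secretory types. Means over the 4 animals were 507 ± 131.8 TPM in early enterocyte progenitors (Enterocyte.prog.early), 474 ± 72.1 in late enterocyte progenitors (Enterocyte.prog.late), 459 ± 91.2 in TA cells, 338.9 ± 41.2 in Stem cells, 268.8 ± 50.5 in Enterocytes and 125.2 ± 33.9 in Goblet cells (SD, n = 4). The animal ranges of the 3 highest types overlapped one another, and those of TA and Stem (353.7 to 552.4 and 281.9 to 378.4) and of Stem and Enterocyte (281.9 to 378.4 and 193.2 to 299.2) overlapped too. The only neighbours in this order that did not overlap were Enterocyte and Goblet, where the lowest Enterocyte animal (193.2 TPM) stood above the highest Goblet animal (153.9 TPM). Paneth, Enteroendocrine and Tuft cells followed at 120.7, 90.1 and 42.9 TPM, but they are few (22, 32 and 7 cells) and their animals ranged from 6.61 to 238.8, 37.01 to 177.3 and 0 to 111.5 TPM.

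Mt2 followed a similar order at lower levels, without a separation between neighbours. Its means were 73.7 ± 5.65 TPM in Enterocyte.prog.late, 71.98 ± 37.1 in Enterocyte.prog.early, 71.6 ± 47.1 in TA, 46.6 ± 51.99 in Stem, 33.04 ± 14.3 in Goblet and 31.3 ± 8.72 in Enterocyte (SD, n = 4). Enteroendocrine, Tuft and Paneth cells had 20.2, 18.8 and 11.96 TPM. Each neighbouring pair of types in this order overlapped over animals. The wide SD of TA and Enterocyte.prog.early came with a split between the genotypes, and that of Stem with a single animal, as described below.

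**Figure D1:**
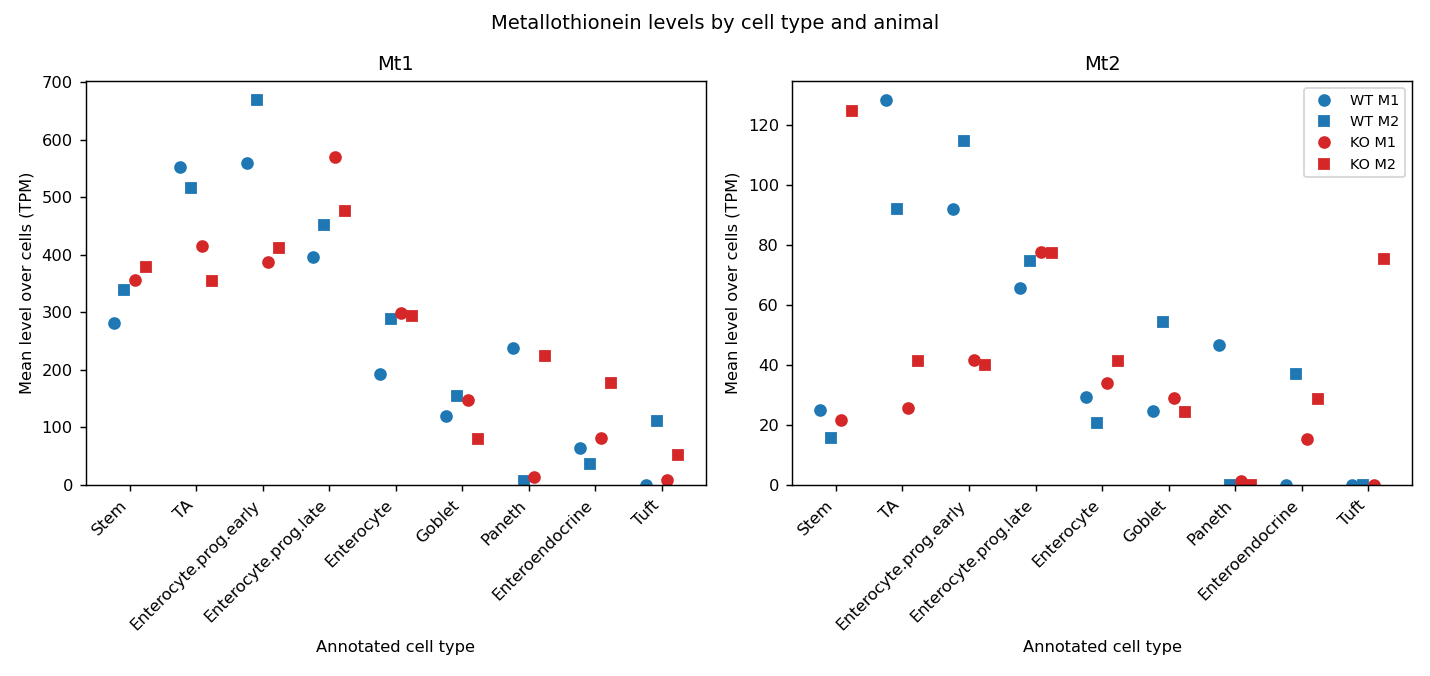
Mean level of Mt1 (left) and Mt2 (right) in TPM over the cells of each animal, for the 9 annotated types; blue is WT, red is KO, circles are M1 and squares M2. In TA and Enterocyte.prog.early cells both KO animals lie below both WT animals for both genes, whereas the single high Mt2 point in Stem cells, at 124.4 TPM, is KO M2.

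TA cells, the rapidly dividing progeny of the stem cells, showed the contrast for which the genes were chosen. Mean Mt2 was 128.1 TPM in WT M1 and 91.8 in WT M2, against 25.5 in KO M1 and 41.1 in KO M2. Both KO animals were below both WT animals, and the genotype means, 109.96 ± 25.7 and 33.3 ± 11.03 TPM (SD, n = 2), stood 3.3-fold apart. On the log2(mean TPM + 1) scale the difference KO minus WT was -1.71 (SE 0.26). Mt1 was lower in KO as well, by less: 552 and 516 TPM in WT M1 and M2, against 415 and 353.7 in KO M1 and M2, a log2 difference of -0.48 (SE 0.18). The Mt1 difference was between -0.29 and -0.0090 when a trend on transcript length was removed, as described with the features of the libraries. As background, limma, a linear-model test fitted across all genes on the 4 animals, called 0.0588% of the 6800 genes tested in TA cells at an adjusted p under 0.05 in either direction, and in 13.3% of them both KO animals were below both WT animals. Nothing is read from these shares, since this contrast was used in choosing the genes.

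The lower Mt2 in KO TA cells appeared both as fewer cells above 0 and as lower levels in those cells. Mt2 was above 0 in 32 of 48 TA cells of WT M1 (66.7%, exact 95% interval 51.6 to 79.6) and in 25 of 37 of WT M2 (67.6%, 50.2 to 81.99). In KO M1 it was above 0 in 15 of 47 (31.9%, 19.1 to 47.1) and in KO M2 in 17 of 43 (39.5%, 24.98 to 55.6). Both WT animals were therefore near 67% and both KO animals below 40%, while the interval of KO M2 overlaps those of both WT animals. Among the TA cells above 0, the mean Mt2 level was 192.2 and 135.9 TPM in WT M1 and M2 and 79.99 and 104.02 TPM in KO M1 and M2. Mt1 was above 0 in 99.4% of TA cells, so its difference lay in the level alone. The median number of genes above 0 per TA cell was 6495 and 6488 in WT and 6305 and 6642 in KO, which overlap.

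**Figure D2:**
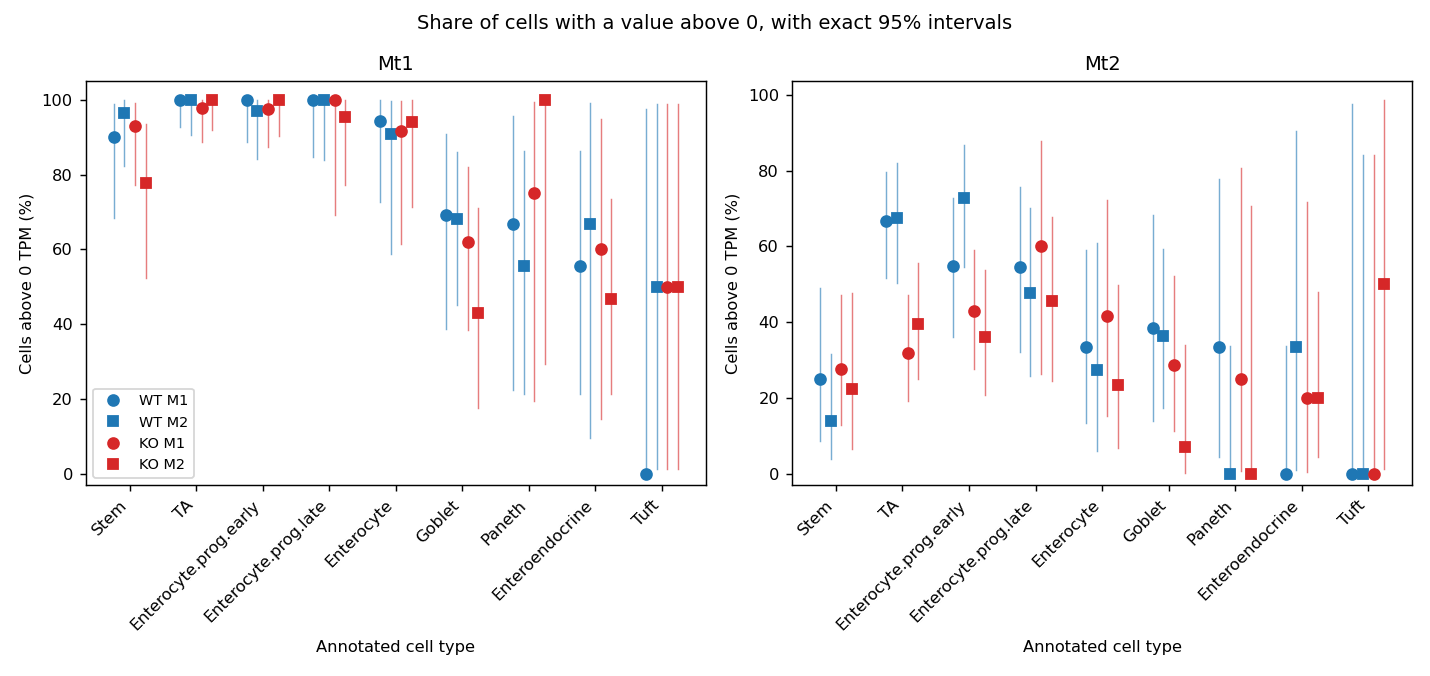
Share of cells with a value above 0 TPM for Mt1 (left) and Mt2 (right), in percent, by annotated type and animal; vertical lines are exact 95% binomial intervals. Mt1 was above 0 in nearly all TA and enterocyte progenitor cells, while Mt2 in TA cells was near 67% in both WT animals and below 40% in both KO animals.

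Early enterocyte progenitors, the next stage of the absorptive lineage, gave a difference in the same direction that did not pass the test across genes. Mean Mt2 in Enterocyte.prog.early cells was 91.8 and 114.5 TPM in WT M1 and M2, against 41.6 and 40.1 in KO M1 and M2. The groups did not overlap, and the genotype means of 103.1 ± 16.1 and 40.8 ± 1.08 TPM (SD, n = 2) stood 2.53-fold apart. The log2 difference was -1.31 (SE 0.22), with an unadjusted limma p of 0.000276 and a Benjamini-Hochberg adjusted p of 0.73. By p, Mt2 ranked 2 of the 6582 genes tested there, and limma called 0% of them in either direction, while 5.53% had an unadjusted p under 0.05. The TA contrast that led to the choice of the genes comes from the same animals, so this p and rank are not independent of that choice.

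Mt1 in Enterocyte.prog.early cells was 559 and 668 TPM in WT M1 and M2, against 387 and 412 in KO M1 and M2. The groups did not overlap here either, and the log2 difference was -0.61 (SE 0.16, limma adjusted p = 0.81). Both members thus had both KO animals below both WT animals, which was so for 13.4% of genes tested in this type. Mt2 was above 0 in 54.8% and 72.7% of the cells of WT M1 and M2 and in 42.9% and 36.1% of those of KO M1 and M2. Mt1 was above 0 in 98.6% of cells of this type.

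Some features of the libraries moved with these differences. In Enterocyte.prog.early the summed level of 6 Paneth cell markers was 4275 TPM in KO M1, against 153.3 in KO M2 and 491 and 105.7 in WT M1 and M2. The part of these markers in the Mt2 difference was not tested. In TA cells the 6 Stem markers summed to 9926 and 9025 TPM in KO and to 7950 and 7819 in WT, and their part in the Mt2 difference was not tested. Genes with transcripts shorter than 1000 bases were on balance lower in KO: their median difference was -0.36 in TA cells, against 0.10 for longer ones, and -0.26 against 0.08 in Enterocyte.prog.early. Lengths were those of the longest annotated transcript, 511 bases for Mt2 and 1085 for Mt1, whose longest 3-exon transcript has 549 and would also count as short. With the trend on transcript length removed, an alternative added after the data were seen, the Mt2 difference was -1.22 in TA and -0.90 in Enterocyte.prog.early. That of Mt1 was -0.29 and -0.46 with 1085 bases, and -0.0090 and -0.22 with 549 bases. Which Mt1 transcript the deposited values rest on was not analysed here.

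The run made little difference to Mt2 in TA cells and a large one in Enterocyte.prog.early. In TA cells the Mt2 difference was -1.70 among run 1 cells and -1.66 among run 2 cells, and in each run the KO animals were the lower pair. In Enterocyte.prog.early it was -2.46 in run 1 and -0.43 in run 2. The run 2 animals overlapped there: Mt2 was 47.5 and 106.4 TPM in WT M1 and M2, and 45.9 and 59.8 TPM in KO M1 and M2. Mt1 kept non-overlapping groups in both runs in both types, with differences of -0.57 and -0.43 in TA and -0.82 and -0.47 in Enterocyte.prog.early. The share of all genes with such an order within single runs was not calculated, so nothing is read from it for either member. Mt1 was also higher in run 1 than in run 2 in each of the 4 animals, with animal means of 363.9 to 494 TPM in run 1 and 288.2 to 319.8 in run 2.

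**Figure D3:**
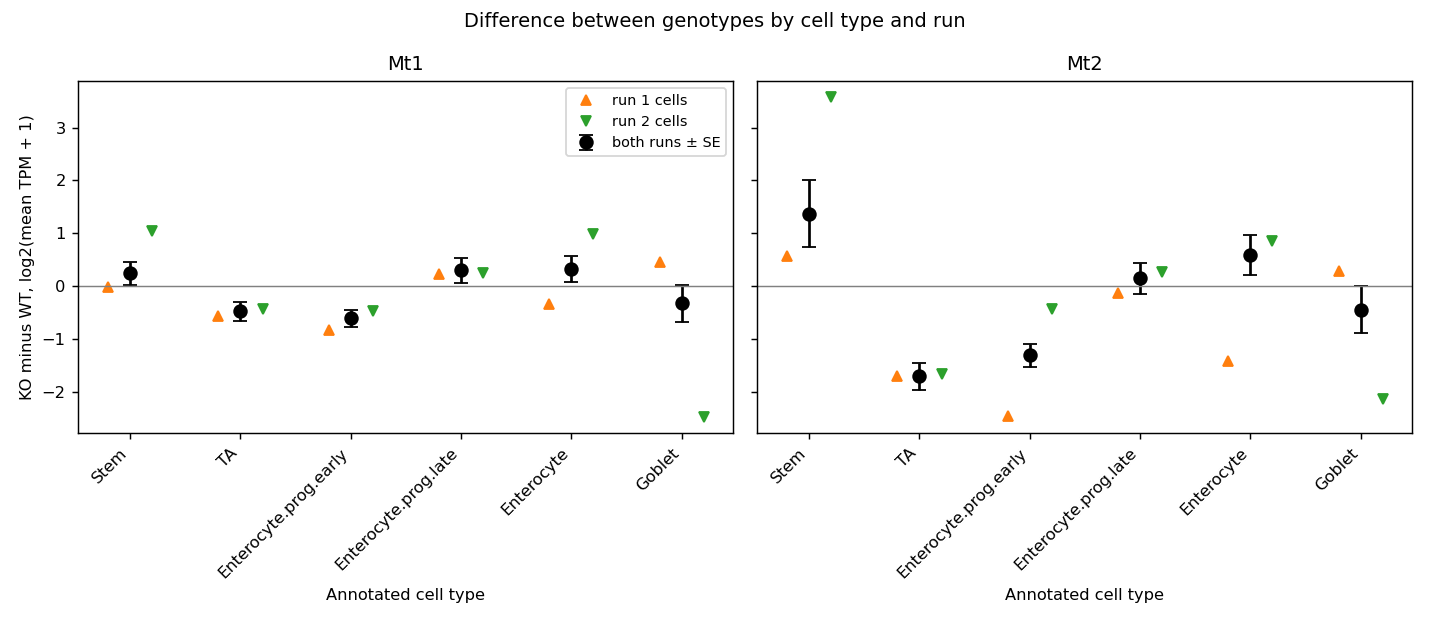
Difference KO minus WT in log2(mean TPM + 1) for Mt1 (left) and Mt2 (right) in the 6 types with at least 10 cells in each animal; black points are both runs with the SE of the limma fit, and triangles are run 1 (upward) and run 2 (downward) cells alone. The TA differences are negative in both runs for both genes, and Mt2 in Stem, Enterocyte.prog.early, Enterocyte and Goblet cells differs widely between the runs. Within a single run an animal can have fewer than 10 cells of a type, such as 3 Goblet cells of WT M1 in run 2.

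In Stem cells, Mt2 was higher in KO through 1 animal. Its mean was 24.9 and 15.5 TPM in WT M1 and M2 and 21.8 in KO M1, but 124.4 in KO M2. The log2 difference was 1.37 (SE 0.64, limma adjusted p = 0.90), and it was 0.14 without KO M2. Of the 18 Stem cells of KO M2, 4 were above 0 for Mt2, and the highest held 1667 TPM; without it the mean of that animal was 33.6 TPM, and without the 2 highest it was 3.50. Mt1 was 281.9 and 339.5 TPM in WT M1 and M2 and 355.6 and 378.4 in KO M1 and M2, a log2 difference of 0.25 (SE 0.22, limma adjusted p = 0.94). Both KO animals were above both WT animals for Mt1, as for 18.2% of the genes tested in Stem cells, and limma called 0% of these genes, with 5.46% at an unadjusted p under 0.05. That order rested on single cells too: without its highest cell, KO M2 averaged 248.3 TPM of Mt1, under both WT animals, and without the 2 highest it averaged 132.8. With each animal's highest cell left out the Mt1 difference was 0.13, in run 1 cells alone it was -0.026, and as a mean over cells of log2(TPM + 1) it was -0.44.

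In the later absorptive cells both KO means lay above both WT means, a direction that several settings turned. In Enterocyte.prog.late Mt2 was 65.4 and 74.5 TPM in WT M1 and M2 and 77.6 and 77.1 in KO M1 and M2, a log2 difference of 0.15 (SE 0.29, limma adjusted p = 0.97). Mt1 was 396 and 453 TPM in WT and 569 and 476 in KO, a difference of 0.30 (SE 0.23, limma adjusted p = 0.91). Both members had both KO animals above both WT animals, which held for 14.1% of the genes tested, and limma called 0.082% in either direction. KO M1 has 10 cells of this type, and 1 of them held 2461 TPM of Mt1 and 562 TPM of Mt2. With each animal's highest cell left out the difference was -0.59 for Mt2 and 0.03 for Mt1. As a mean over cells of log2(TPM + 1) it was -0.013 for Mt2 and -0.12 for Mt1, and in run 1 cells alone it was -0.14 for Mt2.

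Mature Enterocytes, which absorb nutrients on the villus, had Mt2 at 29.3 and 20.6 TPM in WT M1 and M2 and 34.1 and 41.4 in KO M1 and M2. The log2 difference was 0.59 (SE 0.38, limma adjusted p = 0.75). Mt1 was 193.2 and 288.9 TPM in WT and 299.2 and 293.8 in KO, a difference of 0.33 (SE 0.24, limma adjusted p = 0.78). Again both KO animals were above both WT animals for each gene, as for 16.4% of genes tested, with 0.0342% called by limma. In run 1 cells alone both differences were negative, -1.42 for Mt2 and -0.35 for Mt1.

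Goblet cells, which secrete mucus, overlapped between the genotypes. Mt2 was 24.6 and 54.2 TPM in WT M1 and M2 and 28.96 and 24.4 in KO M1 and M2, a log2 difference of -0.45 (SE 0.45, limma adjusted p = 0.94). Mt1 was 120.3 and 153.9 TPM in WT and 147.3 and 79.3 in KO, a difference of -0.33 (SE 0.36, limma adjusted p = 0.94). Limma called 0.0161% of genes in either direction in this type. The runs differed in sign: run 1 cells alone gave 0.28 for Mt2 and 0.46 for Mt1, and run 2 cells -2.14 and -2.48. The run 2 values rest on only 3 cells of WT M1 and 5 of KO M2. Of these 5 cells, 0 were above 0 for Mt2 and 1 for Mt1. Without the run 1 cells of KO M2 the differences were -2.78 for Mt2 and -1.96 for Mt1 (limma adjusted p = 0.92 for both). There KO M2 rests on the same 5 cells. With the length trend removed they were 0.26 for Mt2 and, by the 3-exon transcript, 0.34 for Mt1. The share of Goblet cells above 0 for Mt2 was 38.5% and 36.4% in WT M1 and M2 and 28.6% and 7.14% in KO M1 and M2, and in KO M2 it rests on 1 of 14 cells.

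Over the average of the 5 types other than TA, neither member passed the test. The log2 difference was -0.01 for Mt1 (SE 0.16, limma adjusted p = 0.99) and 0.07 for Mt2 (SE 0.21, limma adjusted p = 0.96), and limma called 0.0298% of 6717 genes in either direction. In this average the negative Enterocyte.prog.early values met the positive Stem and Enterocyte values. The sign of the Mt2 average turned to -0.46 when each animal's top cell in each type was left out, to -0.30 without the run 1 cells of KO M2 and to -0.17 without KO M2. For Mt1 it turned to 0.08 without KO M2 and to 0.15 without WT M2, and it was -0.39 without the run 1 cells of KO M2. Whether the genotype difference varied over these 5 types was asked with a moderated F test in limma, added after the data were seen. It gave an adjusted p of 0.56 for Mt1 (F = 4.34, unadjusted p = 0.0165) and 0.68 for Mt2 (F = 3.49, unadjusted p = 0.0345), so the variation over types did not pass the threshold after Benjamini-Hochberg adjustment.

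Within single cells Mt2 was found mostly where Mt1 was high, and Mt1 mostly had the higher TPM. Of the 677 cells, 39% were above 0 for both, 50.7% for Mt1 alone, 9.9% for neither and 3 cells for Mt2 alone, and Mt2 exceeded Mt1 in 7 cells. When cells were put in 5 bins by Mt1 level, Mt2 was above 0 in 5.15%, 23.7%, 32.6%, 53.3% and 82.4% of the cells from the lowest to the highest bin. Mean Mt2 ranged from 1.31 TPM in the lowest bin to 179.7 TPM in the highest. Median Mt1 was 508 TPM in cells with Mt2 above 0 and 172.4 TPM in the others.

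The Spearman correlation of the pair across the 677 cells was 0.60, and 0.56 with ranks centred within type, animal and run. These cells share animals, runs and the fixed sum of TPM, so the value is a description. It was 0.36 in Stem cells, 0.49 in TA, 0.65 in Enterocyte.prog.early and Goblet and 0.68 in Enterocyte.prog.late. Over all cells both members also correlated with the number of genes above 0 in a cell (Spearman 0.31 for Mt1 and 0.22 for Mt2). Within types this was 0.08 for Mt1 and 0.11 for Mt2 in TA, and 0.08 and 0.05 in Enterocyte.prog.early. It was higher in Stem (0.28 and 0.13), Enterocyte.prog.late (0.35 and 0.16), Enterocyte (0.24 and 0.16) and Goblet cells (0.44 and 0.25). Split by genotype, the pair's correlation across cells was 0.65 (WT) and 0.52 (KO). By animal it was 0.64 and 0.67 in WT M1 and M2, 0.42 in KO M1 and 0.62 in KO M2, so the lower KO value came mostly from KO M1. Among cells with both genes above 0 the correlation of the pair was 0.56 (WT 0.56, KO 0.55). With these cells split by type, it was lower for KO in TA (WT 0.59 over 57 cells, KO 0.18 over 32). It was also lower for KO in Enterocyte.prog.early (WT 0.63, KO 0.48). The animals overlapped there, with 0.53 and 0.66 in WT M1 and M2 and 0.40 and 0.56 in KO M1 and M2. KO had the higher value in Stem (KO 0.66 over 12 cells, WT -0.14 over 8), Enterocyte.prog.late, Enterocyte and Goblet cells. These differences were not tested.

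The ratio of mean Mt1 to mean Mt2 in TPM was 6.72 over all cells, and its size depends on the transcript lengths used. In TA cells it was 4.31 and 5.62 in WT M1 and M2 and 16.3 and 8.6 in KO M1 and M2. In Enterocyte.prog.early it was 6.09 and 5.84 in WT and 9.31 and 10.3 in KO. In both types Mt2 was thus a smaller part of the pair's transcripts in both KO animals than in both WT animals, and this was not tested, since it is built from the same values.

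**Figure D4:**
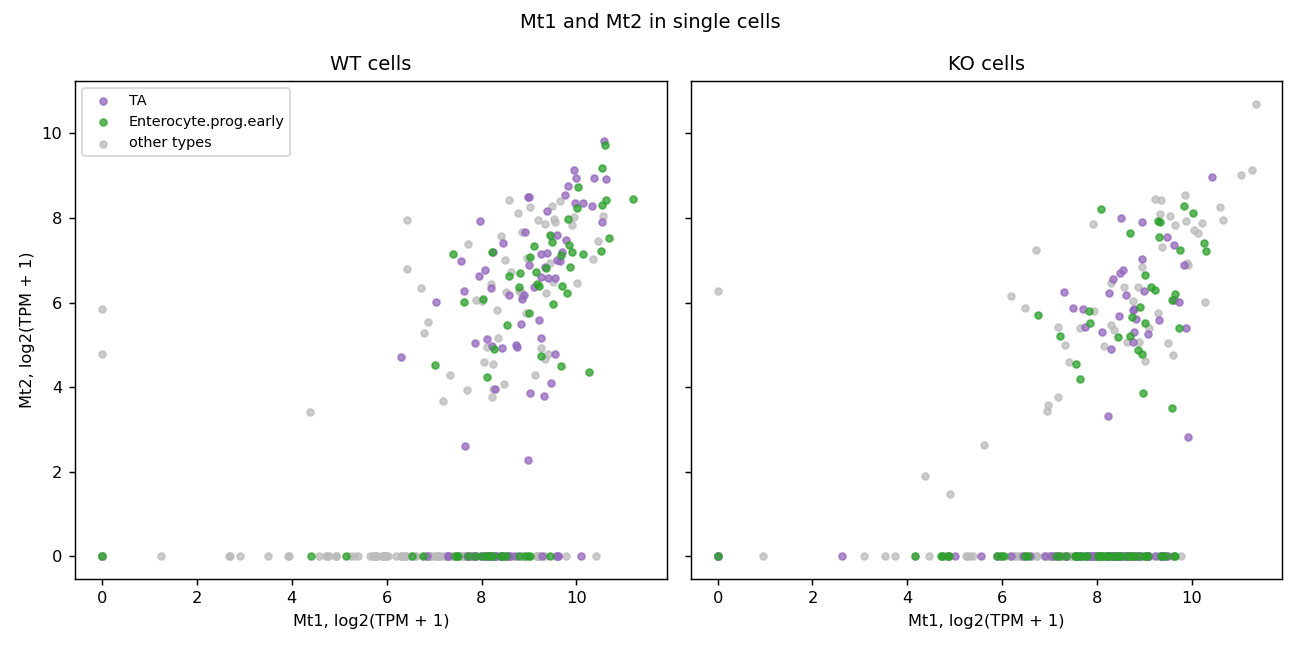
Mt1 against Mt2 in single WT (left) and KO (right) cells, both as log2(TPM + 1); purple points are TA, green Enterocyte.prog.early and grey all other types. Cells with Mt2 above 0 lie to the right, at higher Mt1, and the row at 0 holds 410 of the 677 cells.

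By likeness over cells, each member was the gene most like the other among 6514 genes kept. After Mt2, the genes with the highest Spearman correlation with Mt1 over the 677 cells were Pycard, the inflammasome adaptor ASC (0.48), Ppia, which encodes cyclophilin A (0.48), the mitochondrial aldehyde dehydrogenase Aldh1b1 (0.46) and the translation factor Eif5a (0.46). For Mt2 the next were the ATP synthase subunit Atp5j (0.29), Pycard (0.29), Ppia (0.28) and the respiratory complex subunit Uqcrq (0.27), well below its value of 0.60 with Mt1. Over the 24 profiles of 4 animals by 6 types the picture was different. Mt1 was most like Phb (Pearson r 0.92), Fgfbp1 (0.89), Mrpl12 (0.89), Pycrl (0.89) and Thoc7 (0.88), and its r with Mt2 was 0.60, rank 686. Mt2 was most like Znhit2 (0.66), Gp1bb (0.63), Tmem254b (0.63), Nabp2 (0.61) and Mrps11 (0.60), with Mt1 at rank 8. The profiles share animals, and the values are descriptions across them.

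The other metallothionein genes were rarely detected. Mt3, best known from the brain, was above 0 in 10 WT cells (2.99%) and 4 KO cells (1.17%), and Mt4, known from stratified epithelia, in 1 WT cell and in 0 KO cells, which allows up to 0.877%. Neither passed the filter on low values (a mean of at least 10 TPM and above 0 in at least 10% of cells).

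Genes linked to the metallothioneins were counted by lists, over the average of the 5 types, where the median difference of all 6717 genes was 0.01 and 51.7% were higher in KO. Limma called 0 members of these lists. Of 6 metal response genes, 2 passed the filter on low values: Ndrg1, a stress-induced gene, had a difference of 0.82 (SE 0.19, limma adjusted p = 0.25) and the selenoprotein gene Sepw1 -0.38 (SE 0.16, limma adjusted p = 0.58). MTF1's own gene Mtf1 and the classic zinc-induced exporter gene Slc30a1 did not pass the filter.

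Of the genes listed as zinc exporters, 5 of 10 passed, with 3 higher and 2 lower in KO and a median of 0.09. Among them Slc30a5 had 0.37 and Slc30a9 0.15. Of the zinc importers 8 of 14 passed, with 3 higher and 5 lower and a median of -0.10. Among them Slc39a4, the main importer of dietary zinc, had -0.36 (SE 0.17, limma adjusted p = 0.66) and Slc39a5, its counterpart on the basolateral side, -0.24. In Enterocyte.prog.early, where the members were lower in KO, 6 of 7 zinc importers passing the filter were higher in KO (median 0.20, against 0.07 for all genes, of which 59.2% were higher). In TA cells 8 of 8 were higher (median 0.21, against 0.08 for all genes, of which 60.8% were higher).

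Copper handling genes were the list with the lowest median, -0.43, with 1 of the 6 that passed higher and 5 lower. The copper chaperone gene Atox1 had -0.80 (SE 0.18, limma adjusted p = 0.24) and the copper-zinc superoxide dismutase gene Sod1 -0.70 (SE 0.24, limma adjusted p = 0.48). The list's median was -0.42 in Enterocyte.prog.early and -0.39 in TA. The part of transcript length in these values was not tested.

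Lists linked to the other inducers of metallothioneins were counted in the same way. Of the glucocorticoid response genes 3 of 8 passed in the average of 5 types, with a median of 0.07; Hsd11b2, which inactivates glucocorticoids, had 0.35 and the glucocorticoid target Tsc22d3 -0.23. Of the oxidative stress genes 5 of 7 passed, with 4 higher and 1 lower and a median of 0.28; the glutathione synthesis gene Gclm had 0.51 (SE 0.25, limma adjusted p = 0.67) and the quinone reductase gene Nqo1 -0.40. In Enterocyte.prog.early the medians were 0.08 and 0.36, beside 0.07 for all genes, so the 3 glucocorticoid genes kept there lay near the value of all genes. In TA cells they were -0.07 for the glucocorticoid genes (2 higher and 2 lower) and 0.35 for the oxidative stress genes (3 higher and 1 lower), beside 0.08 for all genes.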

How the data were processed

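The authors deposited 1 table of TPM values, with 23420 genes and 677 cells. Per the submitters' processing notes the tools were Bowtie, TopHat and RSEM; their versions and the genome build are not given in the sources used here. Columns summed to between 999999.17 and 1000000.78 TPM, so depth is not kept and no count model was used. The labels name SMART-Seq2 and a 10X Genomics kit for each of the cells, all of which were analysed, and do not say which was used for which. Genotype came from the labels, and run, animal code and cell type from the titles; 0 columns were left unmatched.

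The mean TPM over the cells of each animal and type was taken as log2(mean TPM + 1), which understates changes of low genes. The 6 types with at least 10 cells in each animal were fitted with limma 3.58.1 in R 4.3.3 (eBayes with an intensity trend, two-sided), and p-values were adjusted by Benjamini-Hochberg over all genes with a mean of at least 10 TPM that were above 0 in at least 10% of cells, with a threshold of 0.05. With 2 codes per genotype, p-values measure only the spread between these codes, and an exact permutation test could not reach the threshold. Shares have exact (Clopper-Pearson) intervals from scipy 1.17.1. No cell was removed and no doublet caller was run. The fit was also run on simulated data with known changes added, in which the cells of each type were drawn from all animals together. Such draws leave out the spread between animals, so they do not show how reliable the calls are here.

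The members, lists, markers and tests were chosen with earlier results of these data known. The genes named are Mt1 and Mt2, from each list the 2 kept members with the smallest unadjusted p over the average of 5 types, and the 5 genes most like each member by each measure, leaving out unnamed gene models; Mtf1 and Slc30a1, and Mt3 and Mt4 as a whole list, are named beside them. Alternatives varied the pseudocount, the filter, the mean, the runs, the units, the block, the animals left out, the cells and the transcript length used for Mt1.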

Additional observations from a re-analysis of the deposited data

Results flagged for a closer look

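The genotype difference of both metallothioneins had opposite signs in different cell types, in some of which the genotypes did not overlap. They overlapped in Goblet cells for both genes and in Stem cells for Mt2. For Mt2, both KO animals lay below both WT animals in TA (-1.71) and Enterocyte.prog.early cells (-1.31), which held for 13.3% and 13.4% of all genes tested there. They lay above them in Enterocyte.prog.late (0.15) and Enterocyte cells (0.59), as 14.1% and 16.4% of genes did. For Mt1, both KO animals lay below in TA (-0.48) and Enterocyte.prog.early (-0.61), and above in Stem (0.25, with 18.2% of genes), Enterocyte.prog.late (0.30) and Enterocyte cells (0.33), beside the same shares in the other types. The positive values were not stable: Mt2 turned to -0.59 in Enterocyte.prog.late with each animal's highest cell left out and to -1.42 in run 1 Enterocytes. Mt1 turned to -0.35 in run 1 Enterocytes, to -0.12 in Enterocyte.prog.late as a mean over cells of log2(TPM + 1) and to -0.026 in run 1 Stem cells, and the Mt1 mean of KO M2 Stem cells was 378.4 TPM with and 248.3 without its highest cell. All other values are KO minus WT differences in log2(mean TPM + 1). Over the 5 types other than TA, the limma F test of this variation gave adjusted p-values of 0.56 for Mt1 and 0.68 for Mt2, and the differences between TA and the other types were not tested. With 2 animals per genotype, no group was large enough for a test of single outlying animals.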

How the results depend on the processing

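In Enterocyte.prog.early both members stayed lower in KO under all alternatives run, 19 for Mt2 and 20 for Mt1 (Mt2 -2.46 to -0.43, lowest limma adjusted p 0.12; Mt1 -0.82 to -0.22, lowest 0.37). So they did in TA cells, where Mt1 came as close to 0 as -0.0090 with the length trend removed by its 3-exon transcript. With the replicate block the Enterocyte.prog.early values were -1.31 for Mt2 (limma adjusted p = 0.16) and -0.61 for Mt1 (0.74). The labels do not say that codes with the same number belong together, and their deviations correlated at -0.11. In TA, Mt2 moved to -2.24 as a mean over cells of log2(TPM + 1) and to -1.22 with the length trend removed, and Mt1 to -0.29 with that trend removed and to -0.62 without the run 1 cells of KO M2. Taking run 1 cells only reversed Mt1 in Enterocyte (-0.35), Goblet (0.46) and Stem cells (-0.026), and Mt2 in Enterocyte (-1.42), Enterocyte.prog.late (-0.14), Goblet (0.28) and the average of 5 types (-0.63). The mean over cells of log2(TPM + 1) reversed Mt1 in Enterocyte.prog.late (-0.12) and Stem cells (-0.44), and Mt2 in Enterocyte.prog.late (-0.013) and the average (-0.47). With 8 run and animal units Mt2 reversed in Enterocyte (-0.28) and the average (-0.11). With each animal's top cell in each type left out, Mt2 reversed in Enterocyte.prog.late (-0.59) and the average (-0.46), and without the run 1 cells of KO M2 the average was -0.30. Removing the length trend reversed Mt2 in Goblet cells (0.26) and the Mt1 average (0.15), and by the 3-exon transcript also Mt1 in Goblet cells (0.34) and its average (0.36). Without the run 1 cells of KO M2, which leaves 5 Goblet cells of that animal, Goblet values were -1.96 for Mt1 and -2.78 for Mt2. Requiring 5000 genes per cell turned the Mt1 average to 0.0038. Leaving out each animal in turn gave -0.77 to 0.11 for Mt1 and -1.002 to 0.11 for Mt2 in Goblet cells, and -0.18 to 0.15 for Mt1 and -0.17 to 0.31 for Mt2 in the average; the lone animal left is assumed to vary like the others. The causes of these reversals were not tested, and none of the values outside TA cells passed the limma threshold. For TA cells no test result is given, since that contrast was used in choosing the genes. The per-cell correlation of the pair was 0.46 as Pearson's r of log2(TPM + 1). A filter at a mean of 50 TPM gave no value for Mt2 in Stem, Enterocyte and Goblet cells.

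The number of genes limma called depended strongly on the setting. It was 2 in the average of 5 types (0 to 270 over the alternatives), 0 in Stem (0 to 33), 4 in TA (0 to 65, and 3.44% of genes without KO M1), 0 in Enterocyte.prog.early (0 to 6), 5 in Enterocyte.prog.late (0 to 12 with all animals, and up to 2.22% of genes without KO M1 or KO M2), 2 in Enterocyte (0 to 55) and 1 in Goblet cells (0 to 49). With the replicate block it was 60, 6, 10, 0, 11, 29 and 48 in that order. Crossing the pairing of the animal codes, tried after the data were seen, gave 270, 33, 65, 2, 0, 14 and 49.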

Other observations

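A few cells held much of the measured Mt2. The single highest cell, a Stem cell of KO M2 from run 2, held 1667 TPM of Mt2, 4.51% of the Mt2 TPM of all 677 cells, and it also held the highest Mt1 value, 2591 TPM. It had 7232 genes above 0. The 7 highest cells together held 15.2% of all Mt2 TPM and 5.77% of all Mt1 TPM. The next highest Mt2 cells were a TA cell of WT M1 (899.5 TPM) and an Enterocyte.prog.early cell of WT M1 (841 TPM).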
